A study of Mus musculus with 6 samples.

Results

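Cytosolic ribosomal protein genes were followed in marrow cells sorted for strong aldehyde dehydrogenase activity, a marrow fraction known to be rich in progenitors, from male and female mice. The genes were taken by symbol (Rpl or Rps, a number and at most a short suffix) among the protein-coding rows of the table, which gave 79 of 21606 genes, 48 of the large subunit (Rpl) and 31 of the small subunit (Rps). The rule used no measured value. It takes in paralogues whose symbols end in l or l1 and leaves out ribosomal proteins with other symbols, such as Rack1 and Rplp1, which are described separately. There were 3 male and 3 female libraries, all from C57BL/6 mice labelled WT with no treatment named. The age of the mice and the number of animals behind each library are not stated here, so p-values measure the spread between these libraries, which may be technical.

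A cytosolic ribosome has a small subunit, which reads the messenger RNA, and a large subunit, which joins amino acids and passes the new chain out through an exit tunnel. Each ribosomal protein is needed in about the same amount as the others, and surplus protein is degraded. Many of their mRNAs start with a cytosine followed by a run of pyrimidines, the TOP motif (terminal oligopyrimidine tract), through which their translation answers to mTOR signalling, and the protein LARP1 binds that motif. Loss of a copy of any of several ribosomal protein genes causes Diamond-Blackfan anaemia in humans, in which red cell progenitors fail in the marrow.

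The TOP motif is shown here because it is the sequence feature that the set is known for and that the symbol rule did not use. In RefSeq promoter windows (GRCm38.p6, 250 bases before to 50 after an annotated start), 60 of the 79 genes were matched, with 72 windows. A C followed by at least 4 pyrimidines stood exactly at the annotated start in 12 of the 72 windows, 16.7%, against 2.51% of all 32851 windows. The following 30-base windows hold 10 bases before the start and 20 from it, 5′ to 3′ on the gene's strand, with the pyrimidine run in capitals. The first 3 genes had log2 fold changes, male minus female, of 0.50 to 0.60, toward the top of the set, and the last 3 of 0.10 to 0.21, toward its bottom.
Rpl38, chr11:114668570-114668599, plus strand: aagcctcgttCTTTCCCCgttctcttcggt
Rpl35, chr2:39005112-39005141, minus strand: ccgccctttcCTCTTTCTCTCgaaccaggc
Rps27, chr3:90213629-90213658, minus strand: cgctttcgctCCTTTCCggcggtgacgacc
Rps6, chr4:86857348-86857377, minus strand: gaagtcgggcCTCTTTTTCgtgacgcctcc
Rpl14, chr9:120571507-120571536, plus strand: ggccctctctCTTCTCgctgagcgccgcca
Rpl28, chr7:4792955-4792984, plus strand: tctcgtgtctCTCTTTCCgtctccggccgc

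Within 10 bases of the annotated start, such a run was found in 54.2% of the set's windows and 30.7% of all windows. The letters CCGGAAG, the core that ETS factors bind, were found on either strand in 34.7% of the set's windows against 8.86% of all windows. The letters AAGATGG, a YY1 core, were found in 16.7% against 6.34%. The last 3 letters of CCGGAAG and the first 3 of AAGATGG are the same, so the matches can overlap. A match describes the letters of a window and does not show that a factor binds there.

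The libraries were made by BRB-seq, a bulk method that reads the 3′ ends of polyadenylated RNA, and the deposited values are raw counts per gene. Totals were 837756, 679724 and 880074 counts in male replicates 1 to 3 and 1199551, 1475224 and 1285309 in female replicates 1 to 3. Every male library was shallower than every female library, so depth and sex cannot be told apart. The labelled sexes matched their libraries: Xist, the X-inactivation RNA, had 0 to 2 counts in male and 225 to 297 in female libraries, and the Y-linked Ddx3y had 51 to 81 in male and 0 in female libraries. Markers of immature myeloid cells (Mpo, Elane, Prtn3 and 7 others) were abundant throughout, at summed levels of 14038 to 15064 CPM (counts scaled to a library size of 1000000, TMM-normalised) in male and 15603 to 16267 CPM in female libraries, while late neutrophil markers summed to 14.5 to 26.6 CPM in male and 21.7 to 24.2 CPM in female libraries.

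The 79 genes held 821556 counts, 12.9% of all counts in the table. A gene had a median of 10363 counts over the 6 libraries, 71 had at least 1000, and 22 genes together held 50% of the set's counts. These are counts of 3′ reads and were not divided by length. The gene with the most counts was Rps12, a small subunit protein known in Drosophila for its part in cell competition, with 30049 counts or 3.66% of the set. It was followed by Rpl4, whose loop reaches into the exit tunnel, with 28021. Rps3, which lines the mRNA entry channel, with 24913, and Rps26, Rps2, Rpl13 and Rps14, with 18030 to 20344 counts each, were also among the 10 highest. At the other end Rpl24 had 15 counts, Rpl39l, a paralogue best known from testis, had 6, and Rpl3l, a paralogue best known from muscle, had 4, and these 3 were too low to be tested. The order of the genes was nearly the same in every library: Spearman's rho across the 79 genes was between 0.975 and 0.997 for the 15 pairs of libraries, which share the genes' own abundance.

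The set's share of all counts was 12.4%, 16.3% and 14.6% in male replicates 1 to 3 and 12.1%, 12.5% and 11.5% in female replicates 1 to 3. Male replicates 2 and 3 stood above every female library, and male replicate 1 stood inside the female range. The mean share was 14.4% ± 1.95 in males and 12.1% ± 0.519 in females (SD, n = 3 each). The exact 95% binomial intervals were narrow, 16.2% to 16.4% for male replicate 2 and 12.5% to 12.6% for female replicate 2, and they cover counting error only. In bulk samples a larger share of cells rich in these mRNAs and more of these mRNAs per cell cannot be told apart.

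**Figure D1:**
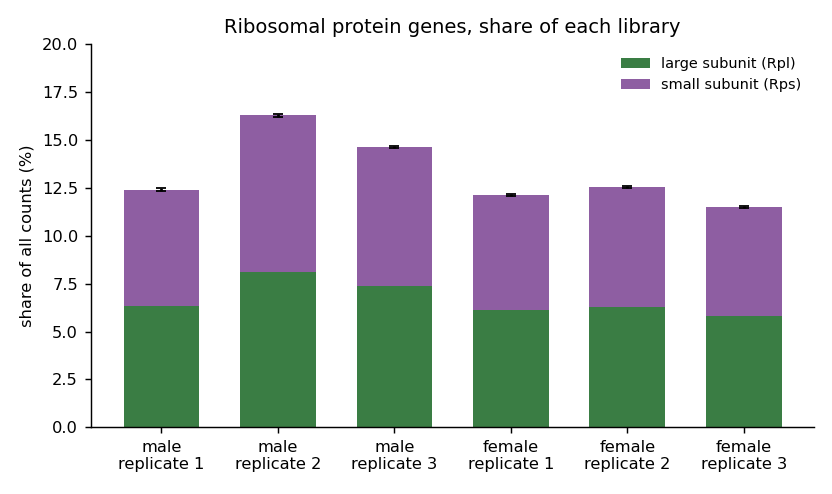
Share of all counts held by ribosomal protein genes in each library (%), split into large subunit (green) and small subunit (purple) genes, with male libraries left of female ones. Whiskers are exact 95% binomial intervals of the whole share. The share was 12.4% to 16.3% in male and 11.5% to 12.5% in female libraries, and the split between subunits was nearly even in all 6.

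No ribosomal protein gene passed the test between the sexes. Of the 79 genes, 76 had enough counts to be tested, and all 76 had a higher fitted level in male libraries (75 with upper-quartile scaling and 74 with library size as the only scaling), but 0 were called at 0.05 (quasi-likelihood F test of edgeR, Benjamini-Hochberg adjusted over the 8460 genes tested). Over all tested genes, 0.426% were called higher in males and 0.154% lower. The log2 fold change of the 76 genes had a median of 0.38, or 1.30-fold, with quartiles of 0.28 and 0.47, while the median over all tested genes was -0.0030 and 49.3% of them were above 0. At an unadjusted p under 0.05, 54 of the 76 genes were higher in males, 71.1%, against 6.83% of all tested genes, and DESeq2 and limma-voom likewise gave 54 at that level (against 4.22% and 6.8% of all tested genes) and called 0 after adjustment. The lowest adjusted p was 0.0733, for Rpl35. With no filter on low counts, 12 genes of the set were called, all higher in males. Of all 21606 genes, 81 were then called higher in males and 35 lower. The 76 genes are not independent of each other: their deviations moved together across libraries, as described next.

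Every male library was above every female library in 18 of the 76 genes, 23.7%, against 7.57% of all tested genes, and every male library was below every female one in 0 of the 76, against 8.03%. Of the 18, 15 were large subunit genes (among them Rpl3, Rpl5, Rpl7, Rpl11, Rpl26, Rpl31 and Rpl35) and 3 were small subunit genes (among them Rps4x and Rps6). In the other 58 genes the sexes overlapped, mostly through male replicate 1. That library stood within the female range in 44 genes, above all female libraries in 19 and below all of them in 13. The gene among the 19 that is not among the 18 is Rpl23a, in which male replicate 3 was below female replicate 3.

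Most of the variation was shared by the genes and differed from library to library. A log2 level minus the gene's mean over 6 libraries had a median over the 76 genes of -0.15, 0.46 and 0.24 in male replicates 1 to 3 and of -0.20, -0.088 and -0.23 in female replicates 1 to 3. Male replicate 2 was the highest library in 74 of 76 genes, and male replicates 2 and 3 were the top pair in 72, or 94.7%, while they were the top pair in 14.3% of all tested genes. Among the female libraries, replicate 2 was the highest in 70 genes. The first principal component took up 94.6% of the variance of the 76 genes' log2 levels around their means, and 39.1% of that of all tested genes.

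**Figure D2:**
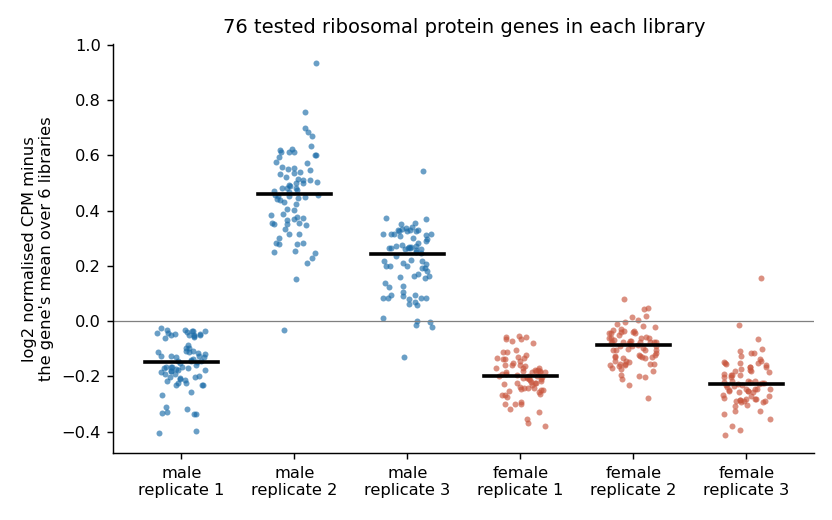
Log2 normalised CPM of each of the 76 tested genes minus its mean over the 6 libraries, 1 point per gene, with the median of each library as a black line. The medians were -0.15, 0.46 and 0.24 in male replicates 1 to 3 and -0.20, -0.088 and -0.23 in female replicates 1 to 3, so male replicate 1 lay among the female libraries.

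The result depended on which male libraries entered. Without male replicate 1, the test called 58 of the 76 genes higher in males, against 3.75% of the 8989 genes then tested, and the median log2 fold change was 0.51. Without male replicate 2 it called 0, and the median was 0.23. Leaving out any other library left 0 called and a median between 0.36 and 0.41. Nothing in the labels sets male replicate 1 apart, so the value with all 6 libraries is the result and the value without it is shown only for its weight.

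Other measures also differed between the libraries. The share of counts from mitochondrially encoded genes was 4.57%, 7.61% and 6.27% in male replicates 1 to 3 and 3.59%, 5.64% and 5.47% in female replicates 1 to 3, so male replicate 2 was highest there too. Erythroid markers summed to 375, 447 and 292 CPM in male replicates 1 to 3 and 183 to 199 CPM in females. Of the 12 erythroid genes, 3 could be tested. Car1 and Car2, carbonic anhydrases of erythroid progenitors, were called higher in males. The other tested gene was not called, with a log2 fold change of -0.28. Early response and heat-shock genes summed to 9977, 8365 and 10161 CPM in male replicates 1 to 3 and 6326 to 6683 CPM in females, with 12 of 20 tested genes called higher in males. Male replicate 2, highest for ribosomal proteins, was the lowest male library for that list. Stromal markers summed to 233 to 353 CPM in males and 192 to 245 CPM in females, with 0 of 5 tested genes called. B and plasma cell markers summed to 733 to 1003 CPM in males and 896 to 930 CPM in females. Of 6 tested, 1 was called in each direction and 1 had a log2 fold change above 0. T and NK cell markers summed to 154 to 170 CPM in males and 129 to 149 CPM in females, with 1 gene tested and 0 called. Beside these counts, 0.426% of all tested genes were called higher in males and 0.154% lower. No marker with a row in the table was at 0 in all libraries. The part of these cells and measures in the ribosomal protein values was not tested.

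The subunits moved together. Large subunit genes held 6.32%, 8.12% and 7.35% of all counts in male replicates 1 to 3 and 6.13%, 6.30% and 5.82% in female replicates 1 to 3, so the sexes did not overlap, though male replicate 1 and female replicate 2 lay close together. Small subunit genes held 6.08%, 8.17% and 7.27% in male replicates 1 to 3 and 5.99%, 6.24% and 5.69% in female replicates 1 to 3, where male replicate 1 lay within the female range. The ratio of large to small subunit counts was 1.04, 0.994 and 1.01 in male replicates 1 to 3 and 1.02, 1.01 and 1.02 in female replicates 1 to 3. The ratios overlapped, and their mean log2 values differed by -0.0054, male minus female, which is less than the spread between libraries of either sex (SD 0.033 in males and 0.011 in females). The 45 tested large subunit genes had a median log2 fold change of 0.38 (0.012 to 0.60) and the 31 small subunit genes 0.37 (0.13 to 0.58).

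The genes with the highest fold changes were Rpl38, Rpl35, Rps7, Rps3 and Rpl23a. Rpl38, a large subunit protein known in mice for its effect on translation of Hox mRNAs, had 653, 1372 and 1048 CPM in male replicates 1 to 3 and 659, 701 and 656 CPM in female replicates 1 to 3. Male replicate 1 was the lowest of the 6 and the other male libraries were the highest. Its log2 fold change was the largest of the set, 0.60 ± 0.17 (SE), with an adjusted p of 0.145 (edgeR). Rpl35, which sits beside the exit of the tunnel, had 389, 642 and 541 CPM in male replicates 1 to 3 and 327, 373 and 347 CPM in female replicates 1 to 3. Its sexes did not overlap, and its log2 fold change was 0.58 ± 0.15 (SE) with an adjusted p of 0.0733. Rps7, a small subunit protein and a Diamond-Blackfan gene, averaged 2603 ± 780 CPM in males and 1742 ± 117 CPM in females (SD, n = 3 each), a log2 fold change of 0.58. Rps3 had 3491, 6487 and 5009 CPM in male replicates 1 to 3 and 3398, 3665 and 3253 CPM in female replicates 1 to 3, again with male replicate 1 among the female values. Rpl23a, where the signal recognition particle docks, was counted only 162 times, and its log2 fold change of 0.54 ± 0.27 (SE) rested on male replicate 2, which had 51.6 CPM, against 25.6 and 24.1 CPM in the other male and 20.1 to 24.6 CPM in the female libraries.

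Among the lowest fold changes were those of Rpl7l1, Rpl28, Rps13 and Rpl14. Rpl7l1, a paralogue of Rpl7 known from assembly of the large subunit, had 121, 121 and 133 CPM in male replicates 1 to 3 and 105, 128 and 139 CPM in female replicates 1 to 3, a log2 fold change of 0.012 ± 0.14 (SE). The sexes overlapped, and the sign turned under several settings, such as -0.079 with library size as the only scaling. Rpl28, a large subunit protein with no bacterial counterpart, averaged 1385 ± 139 CPM in males and 1291 ± 82.8 CPM in females (SD, n = 3 each), a log2 fold change of 0.10 ± 0.13 (SE) that was -0.00026 with library size only. Rps13 and Rpl14, structural proteins of their subunits, both had a log2 fold change of 0.14.

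**Figure D3:**
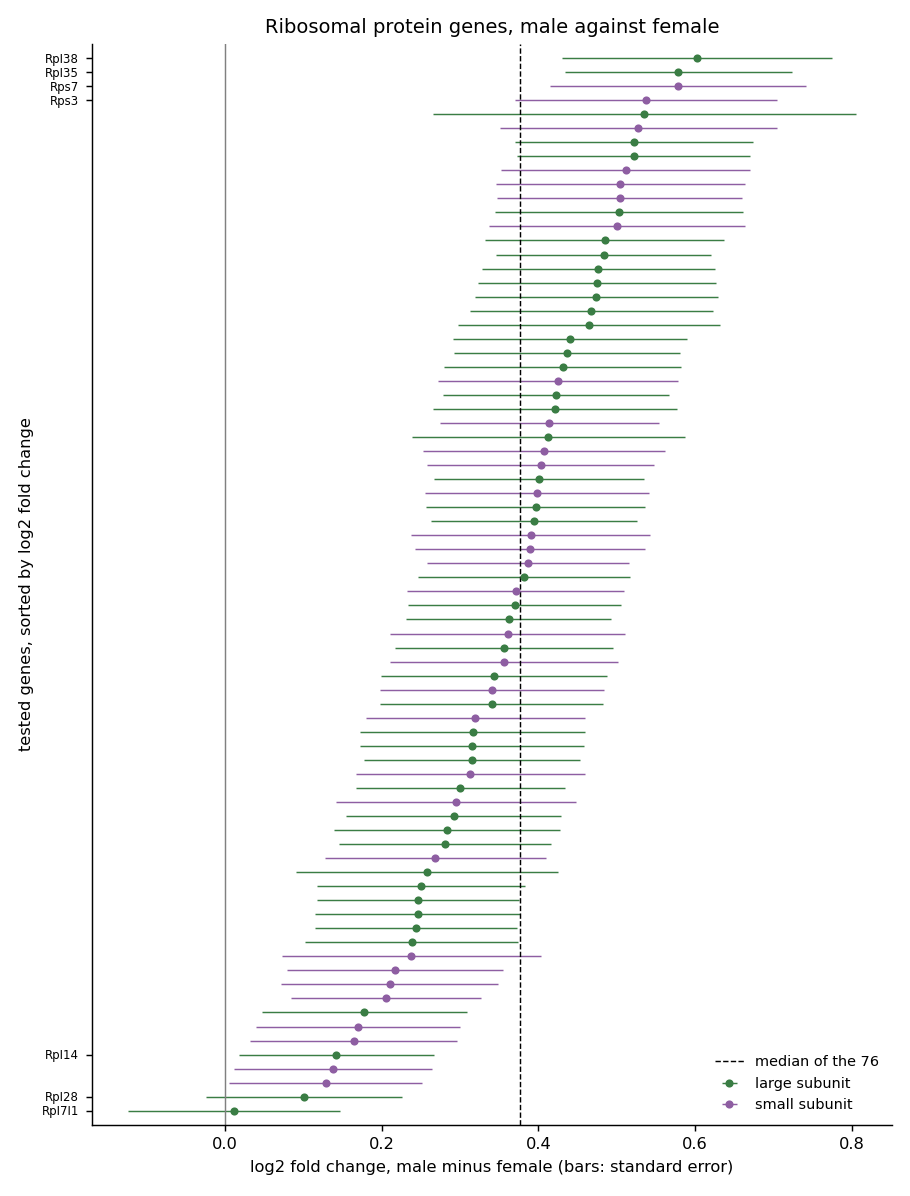
Log2 fold change, male minus female, of each of the 76 tested genes (points) with its standard error (bars), large subunit in green and small subunit in purple, sorted from high to low, with 7 of the genes described in the text named on the axis. All points lie above 0 under this scaling (74 do with library size only), from 0.012 for Rpl7l1 to 0.60 for Rpl38, the dashed line marks the median of 0.38, and large and small subunit genes are interspersed.

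Genes among the 10 with the most counts also differed from each other in fold change. Rps12 had 4302, 6788 and 5873 CPM in male replicates 1 to 3 and 4190, 4685 and 4063 CPM in female replicates 1 to 3. Male replicate 1 lay inside the female range, and the log2 fold change was 0.39 ± 0.15 (SE) with an adjusted p of 0.306. Rpl4 had 4398, 5586 and 4834 CPM in male replicates 1 to 3 and 4135, 4482 and 3942 CPM in female replicates 1 to 3, with the same overlap and a smaller log2 fold change of 0.24. Rps14, whose loss of a copy underlies the anaemia of human 5q- syndrome, had 2328, 4770 and 3716 CPM in male replicates 1 to 3 and 2338, 2694 and 2462 CPM in female replicates 1 to 3, a log2 fold change of 0.53. Rps26, at the mRNA exit of the small subunit, and Rpl13 stood at 0.34, and Rps2, of the mRNA entry channel, at 0.17.

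By their place or role in the ribosome, the groups of genes overlapped in fold change. Rpl5 and Rpl11, which carry the 5S ribosomal RNA and bind MDM2 when assembly fails, had log2 fold changes of 0.39 and 0.44, and both had every male library above every female one. Of 8 genes around the tunnel exit (Rpl4, Rpl17, Rpl19, Rpl23a, Rpl26, Rpl31, Rpl35 and Rpl39), 0 were called, 6 were at an unadjusted p under 0.05 and 4 had sexes that did not overlap, with a median of 0.50 and a range of 0.24 to 0.58. Of 4 genes of the mRNA entry channel (Rps2, Rps3, Rps9 and Rps23), 0 were called, 1 was at an unadjusted p under 0.05 and 0 were free of overlap, with a median of 0.24 and a range of 0.17 to 0.54. All 20 listed Diamond-Blackfan genes were tested, and 0 were called, 18 were at an unadjusted p under 0.05 and 6 had sexes that did not overlap, with a median of 0.40 (0.24 to 0.58). DESeq2 and limma-voom gave the same counts of calls and of unadjusted p in these groups. Of all 76 genes, 71.1% were at an unadjusted p under 0.05 (edgeR), all higher in males, against 6.83% of all tested genes. Every male library was above every female one in 23.7% of the 76 and in 7.57% of all tested genes. The groups hold few genes and are set beside these shares and the median of 0.38 for all 76 without a test.

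The X-linked genes Rps4x, Rpl10, Rpl36a and Rpl39 lay within the range of the autosomal ones. Rps4x, a small subunit protein encoded on the X in mice with no Y copy, had 1655, 2159 and 2016 CPM in male replicates 1 to 3 and 1489, 1515 and 1451 CPM in female replicates 1 to 3. Its male libraries were all above its female ones, and its log2 fold change was 0.39 ± 0.13 (SE) with an adjusted p of 0.225. Rpl10, among the last proteins to join the large subunit, had a log2 fold change of 0.28, Rpl36a, near the site where the empty tRNA leaves, 0.48, and Rpl39, which lines the tunnel, 0.47. In these 3 genes male replicate 1 lay inside the female range and the other male libraries above it.

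Paralogues could be compared within a library, where a change common to the set drops out. Of 8 pairs listed, 4 had at least 10 counts for each gene: Rpl3l and Rpl39l had too few, and a gene of the Rpl10l and Rps4l pairs was outside the set. The test was an exact two-sided permutation test over the 6 libraries, for which the smallest possible p is 0.1. Rps27l, a p53 target, made up 38.6% of the counts of Rps27l and Rps27 together. That share is uncertain, because Rps27rt, a near-identical copy of Rps27, had 1780 counts. The log2 ratio of Rps27l to Rps27 was -0.70, -0.80 and -0.85 in male replicates 1 to 3 and -0.63, -0.57 and -0.57 in female replicates 1 to 3. The sexes did not overlap, and the ratio was lower in males by a mean difference of -0.19 (exact p = 0.1, 0.267 after adjustment over the 4 pairs). Rpl7l1 made up 7.07% of its pair, and its ratio to Rpl7 differed by -0.35, male minus female (exact p = 0.2). Rpl36al made up 10.3% of its pair with Rpl36a, with a difference of -0.20 (exact p = 0.2). Rpl22l1, whose mRNA is held down by Rpl22 in mice, made up 7.04% of its pair, with a difference of -0.085 (exact p = 0.7). In these 3 pairs the sexes overlapped, and no pair could have passed 0.05 in this design.

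The spread of fold changes within the set was narrower than that of other genes of like level. The SD of the 76 log2 fold changes was 0.126, against 0.353 for all tested genes and 0.225 for 1394 other tested genes of like level (mean log2 CPM 6.96 to 11.79), whose median was 0.031. The counting error of these fold changes had a root mean square of 0.048 over the 76 genes (median 0.0285, highest 0.228), and it leaves out the variation between samples. The proportions in which the genes divided the set's counts varied more among the male libraries than among the female ones. The chi-square per degree of freedom, over 76 genes with at least 100 counts, was 8.72 in males and 2.21 in females. For male replicates 1 and 3 alone it was 10.1, and male replicates 2 and 3 were not compared without replicate 1. The estimated biological coefficient of variation had a median of 0.128 in the set (0.0852 to 0.161) and of 0.096 in the genes of like level.

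Depth was approached by drawing every library down to 679724 counts, the total of the shallowest. All 76 genes were again tested, 0 were called, 75 were above 0 and the median log2 fold change was 0.36. Because the totals of the sexes do not overlap, no relation between the set's level and depth was computed across libraries. Within each sex there was no common order. The shallowest male library, replicate 2, had the highest share, but the deepest female library, replicate 2, had the highest female share.

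Coding length was related to the fold change in the set and in the whole table alike. Ribosomal protein genes are short, with a median longest coding length of 454.5 bases (138 to 1257), against 1338 for tested genes with a coding length. Across the 76 genes, Spearman's rho between log2 fold change and coding length was -0.35, and across 8156 tested genes it was -0.31. Genes share libraries and scaling, so these are descriptions. Up to 504 bases, the 45 ribosomal protein genes had a median log2 fold change of 0.40 and 776 other genes 0.14. From 504 to 711 bases the medians were 0.34 for 18 and 0.081 for 797 genes, and from 711 to 924 bases 0.25 for 11 and 0.028 for 803 genes. Above 924 bases stood Rpl4 and Rpl3, with a median of 0.24, against -0.047 for 5704 other genes.

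The set's median was above that of other genes in each class, with 2 genes in the last, while its lowest genes lay below the others' median in the first class (0.10 against 0.14) and the third (0.012 against 0.028). In single libraries, rho between a gene's deviation from its mean and coding length over all tested genes was 0.17, -0.39 and -0.13 in male replicates 1 to 3 and 0.17, 0.12 and 0.31 in female replicates 1 to 3, so short genes were relatively high in male replicates 2 and 3. With the trend on coding length removed in each library, an alternative chosen after seeing the data, the set's median log2 fold change was 0.24. Of its 76 genes 74 were above 0 and 3 were called higher in males, among them Rps3 and Rps7. Of the 8156 genes then tested, 48 were called higher in males and 19 lower.

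**Figure D4:**
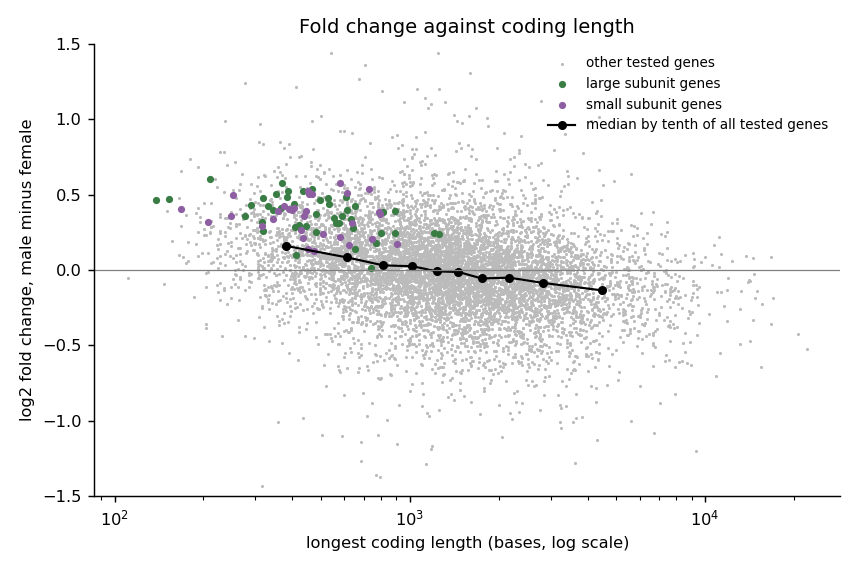
Log2 fold change, male minus female, against longest coding length (log axis) for tested genes, with large subunit genes in green, small subunit genes in purple, other genes in grey and the median of each of 10 equal bins of all tested genes as a black line. The line runs down from short to long genes, and most ribosomal protein genes lie above it; 22 genes beyond 1.5 in either direction are not drawn.

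Counts of ribosomal protein genes can be split with near-identical copies elsewhere in the genome. Of the 79 genes, 68 share at least 1 stretch of 81 bases, the length of the sequenced insert, between their last 500 transcript bases and another gene of the GENCODE M21 transcripts, and 24 share over 50% of such stretches. In 4 genes the most counted copy had more counts than the gene itself. Rpl10a had 3392 counts and Rpl10a-ps1 7006, Rpl35 had 2576 and Gm2000 4957, Rpl13a had 2027 and Gm11478 5149, and Rpl24 had 15 and Gm9385 586. The part of stretches shared with copies was 74.5% for Rpl10a, 71.0% for Rpl35 and 88.8% for Rpl24, but only 3.31% for Rpl13a. Stretches had to be identical and were pooled over a gene's protein-coding transcripts, so these parts are not those of the 3′ end in use. The sources used here do not say how reads with several matches were counted, so the levels of these 4 are uncertain, and Rpl24 in particular cannot be called silent. The same limit holds for shares within paralogue pairs, as Rps27 shares 41.9% of its stretches with copies and Rpl36a 84.4%. Of the 79 genes, 14 also share such stretches with a gene that overlaps them in position, among them Rpl35, Rpl23a and Rpl28.

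Fold changes of copies lay closer to those of their genes in some pairs than in others. Gm2000 had a log2 fold change of 0.63 ± 0.15 (SE), with an adjusted p of 0.0547 (edgeR), beside 0.58 for Rpl35, and Rpl10a-ps1 had 0.42, as did Rpl10a. Gm11478 had 0.695 ± 0.17 (SE) beside 0.483 ± 0.14 (SE) for Rpl13a. Rpl23a-ps3, with 101 counts, had -0.034 ± 0.39 (SE) beside 0.54 ± 0.27 (SE) for Rpl23a. In each of these last pairs the ranges given by the SE overlapped. Of 54 tested rows named as ribosomal protein pseudogenes (-ps), 49 were above 0, 0 were called and the median was 0.36. The 9 tested genes that share no stretch had a median log2 fold change of 0.39, and the 23 that share over 50% had 0.37. Spearman's rho across the 76 genes between the shared part and the fold change was -0.029.

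**Figure D5:**
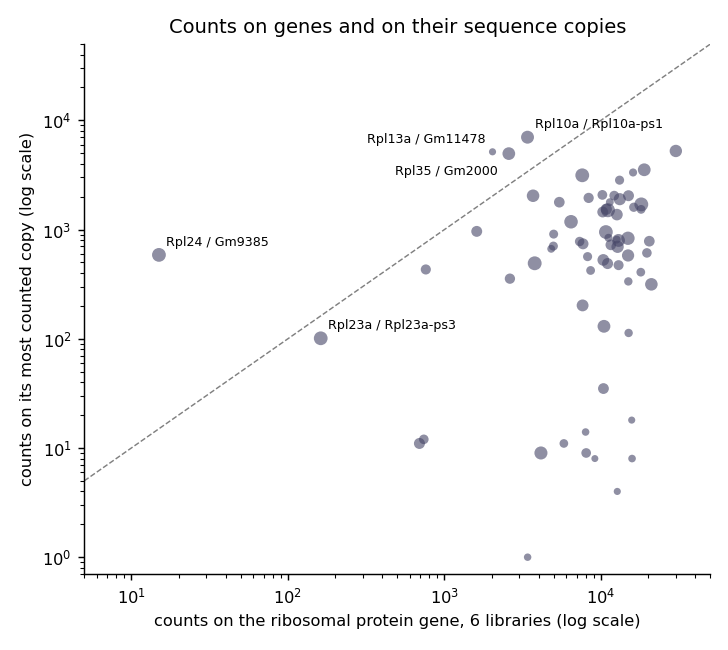
Total counts of each ribosomal protein gene over the 6 libraries against those of its most counted copy (both log axes), for the 68 genes with a counted copy. Point size grows with the share of stretches found in copies, and the dashed line marks equal counts. Rpl10a, Rpl13a, Rpl35 and Rpl24 lie above the line, and Rpl23a, with 162 counts, lies closest below it.

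Genes with and without the TOP run at the annotated start had similar medians. The 12 tested genes with a run had a median log2 fold change of 0.40 and the 45 matched genes without had 0.36. Among other tested genes, 192 with a run had a median of 0.024 and 6470 without had -0.012. Rpl35 and Rpl28, both with a run in the windows shown above, had 0.58 and 0.10. The split rests on the exact annotated base. A run stood there in 16.7% of the set's windows but within 10 bases in 54.2%. The comparison therefore cannot separate genes with the motif from genes without it.

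Ribosomal proteins outside the symbol rule had fold changes within the range of the set. Of 7, 6 were tested, 0 were called, and all 6 were above 0 with a median log2 fold change of 0.31, and 3, all higher in males, were at an unadjusted p under 0.05 by edgeR, DESeq2 and limma-voom alike. Rack1, a scaffold on the small subunit, had 4128, 6386 and 4883 CPM in male replicates 1 to 3 and 3953, 4065 and 3836 CPM in female replicates 1 to 3, with every male library above every female one and a log2 fold change of 0.38 ± 0.15 (SE). Rplp1, of the large subunit's stalk, had 0.43.

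Other lists of the pathway had medians nearer to 0. Over all tested genes, 6.83% were at an unadjusted p under 0.05 and higher in males by edgeR, 4.22% by DESeq2 and 6.8% by limma-voom, and 4.5%, 1.68% and 4.23% were so and lower in males. Of 17 TOP mRNAs that encode no ribosomal protein, 0 were called by edgeR, DESeq2 or limma-voom, 4 were at an unadjusted p under 0.05 by each (all higher in males), and 13 were above 0, with a median log2 fold change of 0.15. Pabpc1, the poly(A)-binding protein, stood at -0.15 and Eef2, an elongation factor, at 0.12. Of 32 ribosome biogenesis genes, 0 were called by any of these tools, 2 (edgeR), 0 (DESeq2) and 3 (limma-voom) were at an unadjusted p under 0.05 (all higher in males), and 19 were above 0, with a median of 0.048. The nucleolar proteins Npm1 and Ncl stood at 0.15 and -0.14. Of 11 tested genes for transcription of ribosomal DNA, 0 were called by any of these tools, 2 were at an unadjusted p under 0.05 by edgeR and limma-voom and 1 by DESeq2 (all higher in males), and 8 were above 0, with a median of 0.11. Polr1d, a subunit of RNA polymerases I and III, and Taf1d, of the polymerase I selectivity factor, stood at 0.087 and 0.11.

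Of 15 tested regulators of TOP translation and ribosome supply, 0 were called by any of these tools, 3 were at an unadjusted p under 0.05 by each (all lower in males), 6 were above 0 and the median was -0.11. Larp1, which binds the TOP motif, had 255, 123 and 218 CPM in male replicates 1 to 3 and 287, 273 and 292 CPM in female replicates 1 to 3. All male libraries were below all female ones, as in 8.03% of all tested genes, and the lowest was male replicate 2. The log2 fold change was -0.49 ± 0.16 (SE) with an adjusted p of 0.225 (edgeR). Long genes were relatively low in male replicate 2, where rho between deviation and coding length was -0.39 over all tested genes. The part of coding length in the values of these regulators was not tested. Eif4ebp2, an inhibitor of cap-dependent translation, stood at -0.37.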

How the data were processed

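Per the labels' protocols, BRB-seq libraries were made from total RNA with oligo-dT primers that carry a barcode of 9 bases, a UMI (molecular identifier) of 10 bases and an insert read of 81 bases. Per the submitters' processing notes, featureCounts 2.0.1, HISAT2 2.2.1, Trim Galore 0.6.7, UMI-tools and DESeq2 were used, and GRCh38 and GRCm38 are the builds named. The authors deposited raw counts per gene, which are whole numbers and not normalised. The sources used here do not say whether UMIs were collapsed, how reads with several matches were counted or whether strand was used, so overlapping and antisense genes may share reads.

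From these counts, edgeR 4.0.16 in R 4.3.3 kept 8460 genes (filterByExpr by sex, minimum count 10, minimum total 15), scaled them by TMM and tested male minus female with the quasi-likelihood F test (sex as the only term, Benjamini-Hochberg adjusted p under 0.05). The fit covers the whole table. CPM use TMM library sizes, and log2 levels a prior count of 1. The steps were tested on simulated data. Alternatives were 4 other scalings, 2 other filters, DESeq2 1.42.0, limma-voom (limma 3.58.1), a replicate block, thinning, removal of mitochondrially encoded genes or of the coding length trend, and leaving out each library. Paralogue ratios are log2 of counts plus 0.5. In the 6 pairs of same-sex libraries, counts differed by more than counting error (chi-square per degree of freedom 2.15 to 4.62). Totals of 679724 to 1475224 counts give exact 95% intervals of about 0.1 points on the set's share. Gene coordinates and transcripts are from GENCODE M21 (GRCm38), starts from RefSeq (GRCm38.p6).

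Genes named are, except for some items not reported here, the 10 with the most counts, the 5 highest and 5 lowest fold changes, paralogue pairs, X-linked genes, untested genes with at least 10 counts and, from other lists, the 2 of highest level. Others were named to list a count or after their values were seen. The members and lists were chosen with earlier results of these data known.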

Additional observations from a re-analysis of the deposited data

How the results depend on the processing

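With 0 genes of the set called by the reported fit, the same count was found with RLE, upper-quartile and library-size scaling, TMM without the set, the stricter filter, DESeq2, limma-voom, thinning and the table without mitochondrially encoded genes. It was 12 with no filter on low counts (among them Rpl26, Rpl31, Rpl35, Rpl38, Rps14, Rps3 and Rps7), 1 (Rpl35) with the replicate block, 3 with the coding length trend removed and 0 to 58 when each library was left out, with 58 only without male replicate 1. With no filter, 81 genes of the whole table were called higher and 35 lower in males, and with the trend removed 48 and 19. The cause of the 12 and the 3 was not tested. The sexes share replicate numbers, and deviations of same-numbered libraries had correlations of 0.0258, 0.0286 and 0.0436. For differing numbers they were -0.0305 to 0.0014, so each male library correlated best with its own. Values this near to 0 cannot tell whether same-numbered samples share more than a number. Over all genes, the block called 56 higher and 22 lower in males, against 36 and 13 without it. With 1 library of a sex left out, the test pools the spread of the others.

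The set's median log2 fold change ranged from 0.23 to 0.51 over the libraries left out and from 0.24 to 0.38 over the other settings, and 74 to 76 of the 76 tested genes were above 0 (78 of 79 with no filter). With library size as the only scaling the median of all genes was -0.092 and that of the set 0.27. The SD of the fold changes was 0.265 with no filter, which lets in 3 genes of 15 or fewer counts, and 0.097 to 0.169 over the libraries left out. The sign of Rpl7l1 turned with upper-quartile scaling (-0.0053), library size only (-0.079), no filter (-0.020), thinning (-0.14), the coding length trend removed (-0.041), without male replicate 3 (-0.034) and without female replicate 1 (-0.090; -0.090 to 0.095 over the libraries left out). That of Rpl28 and Polr1d turned with library size only (-0.00026 and -0.011) and with the coding length trend removed (-0.038 and -0.051), that of Ncl without female replicate 3 (0.12; -0.25 to 0.12) and that of Taf1d without female replicate 1 (-0.033; -0.033 to 0.27). The male minus female difference in mean share was 2.38 points. It was 2.54 to 2.76 points with other denominators, or with -ps rows or other ribosomal proteins added. That in the log2 subunit ratio was -0.0054, with SDs of 0.033 in males and 0.011 in females. Its sign turned, to 0.0037 without the most counted gene of each subunit and to 0.015 as a difference of mean log2 levels. The paralogue ratio differences moved by less than the spread between libraries under every alternative run. The levels themselves moved. With the other ribosomal proteins added, the mean share was 16.3% in males and 13.7% in females. The mean log2 large to small ratio was then 0.059 in males and 0.073 in females.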
